A study of Mus musculus with 12 samples.

Results

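A set of 9 genes of leukocyte adhesion was examined in transplanted mouse tumors, namely Icam1, Icam2, Vcam1, Sele, Selp, Selplg, Itgal, Itgb2 and Itga4. They were taken by symbol, and all 9 of 9 were present among the 34678 gene symbols of the bulk RNA-sequencing tables and were tested. The tumors were grown from LLC1-shLkb1 cells, a mouse Lewis lung carcinoma line in which a short hairpin RNA lowers Lkb1 (Stk11), injected under the skin of C57BL/6 mice aged 5 to 8 weeks, and they were collected after 2 weeks of treatment. The 4 arms of 3 tumors each were vehicle (with a control antibody), palbociclib (an inhibitor of CDK4 and CDK6, 100 mg/kg by mouth), anti-PD-1 (an antibody that blocks the T cell checkpoint receptor PD-1, 200 µg per mouse into the peritoneum) and the combination of palbociclib with anti-PD-1. All 4 arms carried the Lkb1 knockdown, the cells form 1 transplanted line in an immunocompetent host, and both sexes of mice were used. The question addressed was whether the genes that let leukocytes leave the blood and bind to target cells differed in level between the treatments.

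Leukocytes leave a vessel in steps. Selectins on activated endothelium or platelets catch the cell by sugar chains on carriers such as PSGL-1, integrins on the leukocyte are then switched to their active form, and these bind ligands of the immunoglobulin family on the vessel wall, after which the cell arrests and crosses. The same integrins and ligands hold T cells to tumor cells and antigen-presenting cells. In these genes Sele and Selp encode the selectins, Selplg encodes PSGL-1, Icam1, Icam2 and Vcam1 encode the ligands, Itgal and Itgb2 encode the chains of LFA-1, which binds the ICAMs, and Itga4 encodes the chain that binds VCAM-1.

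Values are FPKM, mapped fragments scaled by gene length and by library size. The libraries held an estimated 14900000 to 20300000 fragments per tumor. Stk11, the target of the hairpin, was at 7.90 to 11.5 FPKM over the 12 tumors, and since every arm carried the knockdown these values do not check it. Several tumors held RNA of surrounding tissue. The summed FPKM of 6 skeletal muscle markers was 169 in palbociclib replicate 3, 162 in combination replicate 2 and 58.1 in vehicle replicate 1, against at most 11.2 in the other 9 tumors. Adipocyte markers reached 68.3 and 181 in palbociclib replicate 1 and combination replicate 1, and skin markers 260 in palbociclib replicate 2. Combination replicate 2 also had the lowest level of the pan-leukocyte gene Ptprc (CD45), 0.841 FPKM, against 1.19 to 3.36 in the other tumors. In bulk tumors fewer cells of a type and less RNA per cell cannot be told apart.

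The 9 genes spanned a wide range of levels. In order of mean FPKM over the 12 tumors they stood as Itgb2 (26.6), Icam1 (4.69), Selplg (4.25), Vcam1 (3.21), Itgal (1.51), Icam2 (1.23), Itga4 (0.870), Selp (0.327) and Sele (0.132). Itgb2 was above Icam1 in 12 of 12 tumors, with ranges that did not overlap. The ranges of every other pair of neighbours in this order overlapped, although Vcam1 lay above Itgal, Itga4 above Selp and Selp above Sele within each of the 12 tumors. The order of Icam1 and Selplg, with Icam1 higher in 6 of 12 tumors, and that of Itgal and Icam2, likewise 6 of 12, could not be told apart. The endothelial selectins therefore gave the sparsest data. Whole fragment numbers recovered from the steps of the FPKM values came to 76 for Sele over all 12 tumors and 395 for Selp, against an approximate 16456 for Itgb2.

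**Figure D1:**
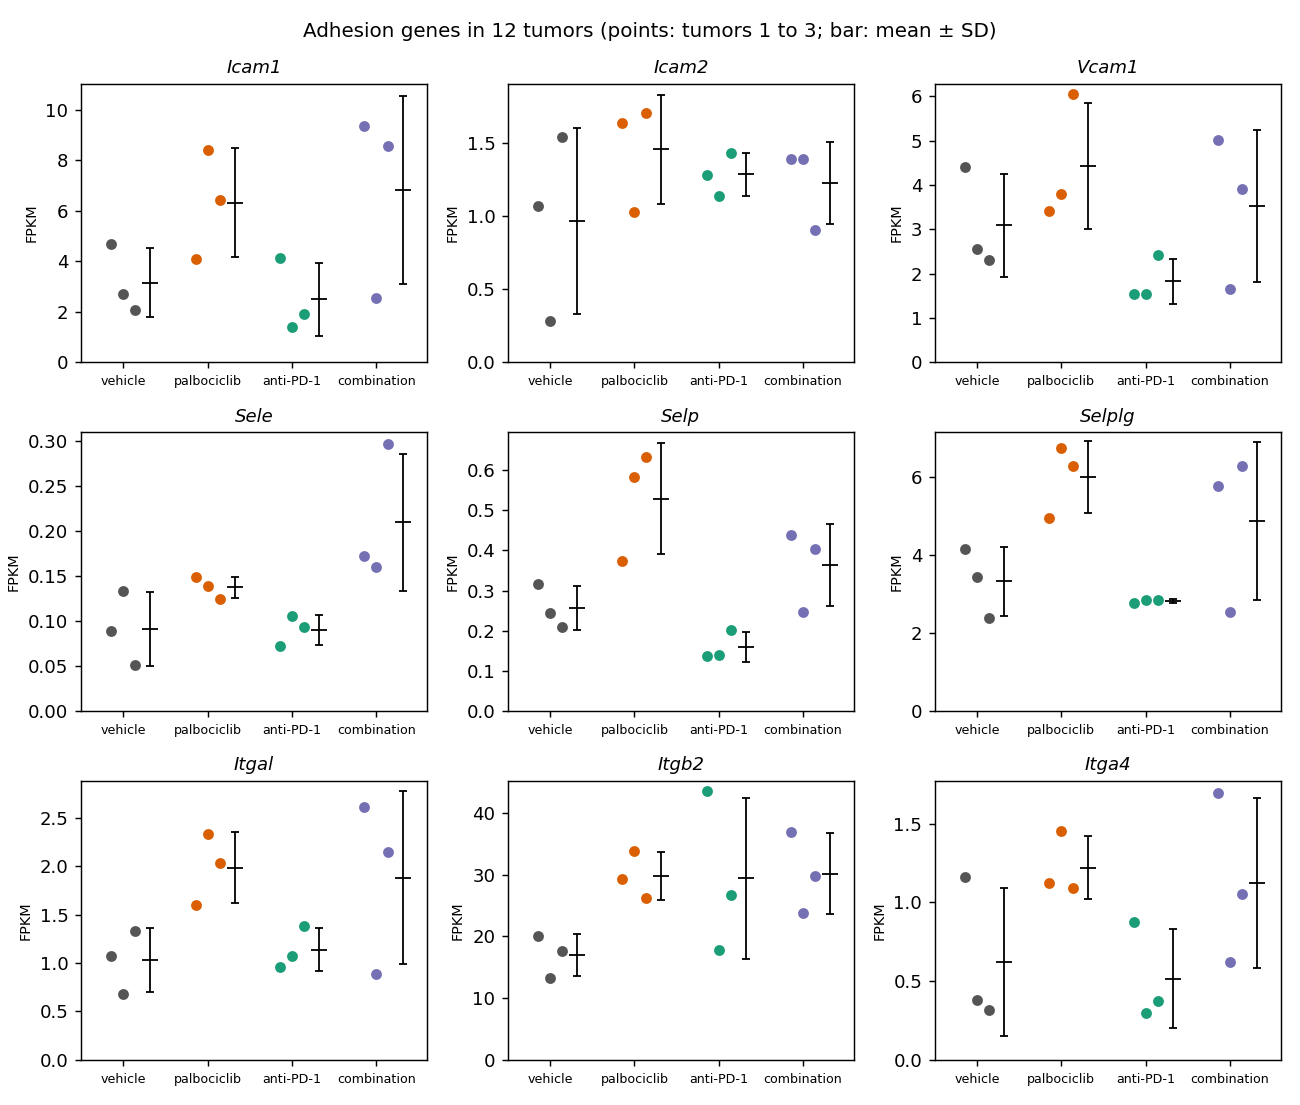
FPKM of each gene (vertical axes, from 0, on separate scales) in the 4 arms (horizontal axes). Points are tumors 1 to 3 of an arm from left to right and the bar is the arm's mean ± SD. Selp, Selplg, Itgal and Itgb2 were higher in all 3 palbociclib tumors than in all 3 vehicle tumors, as were 12.9% of all genes. Combination replicate 2 lay below the other combination tumors for every gene but Icam2.

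Across the treatments, the mean difference of each of the 9 genes was positive for palbociclib, and none passed the test over all genes. The palbociclib effect was computed on log2(FPKM + 0.1) as the mean of 2 differences, palbociclib minus vehicle and combination minus anti-PD-1. It ran from 0.34 for Icam2 to 1.18 for Icam1, with a median of 0.74 over the 9 genes against 0.055 over all 15350 genes tested. Of all genes tested, 59.8% had a positive effect. At an unadjusted limma p under 0.05, 8 of the 9 genes were higher, Icam2 being the exception, against 14.1% of all genes. The 9 genes were chosen with earlier results of these data known. These shares and medians are therefore a description and not a test of the set. After Benjamini-Hochberg adjustment in limma 0 of 9 passed 0.05, where 0.313% of all genes passed (48 genes, with 3154 genes at an unadjusted p under 0.05), and the lowest adjusted p of the 9 was 0.0846 for Selp. Adipocyte markers also went with palbociclib, with 4 of 4 effects positive, a median of 3.86, 0 past the limma threshold and 4 at an unadjusted p under 0.05. They summed to 1.99 to 68.3 FPKM in palbociclib tumors and 0 to 181 in combination tumors, against 0 to 0.0807 in vehicle and 0.0337 to 0.336 in anti-PD-1 tumors. Skeletal muscle markers (6 of 6 positive, median 1.58) and skin markers (5 of 5, median 1.38) had positive effects too, with 0 at an unadjusted p under 0.05. Epithelial markers (2 of 4 positive) and fibroblast markers (4 of 6) were mixed. The part of these tissues in the effect on the 9 genes was not tested. The calls depended on single tumors. Without combination replicate 2, Icam1 (1.48, limma adjusted p = 0.0464), Selplg (0.96, 0.0122) and Itgal (0.96, 0.0361) passed, where 262 genes (1.7%) passed in all. Without vehicle replicate 1, Selp (0.87, limma adjusted p = 0.0456) and Itga4 (1.28, 0.0417) passed, where 695 genes (4.53%) passed in all, while leaving out any of the other 10 tumors left 0 of 9.

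**Figure D2:**
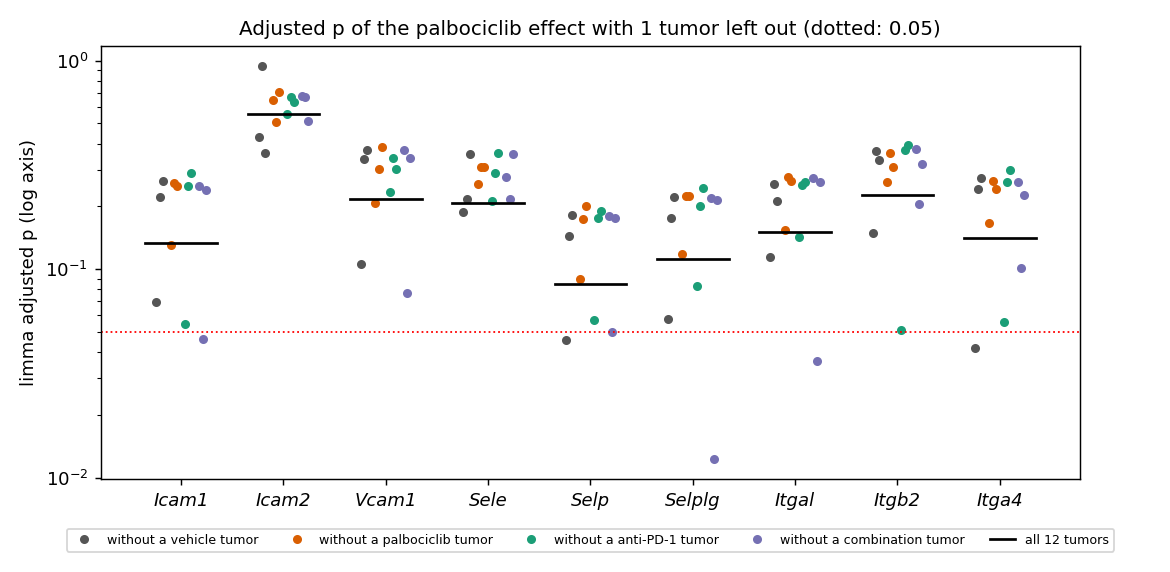
Limma adjusted p of the palbociclib effect (vertical axis, log scale) for each gene (horizontal axis), with all 12 tumors (black line) and with each tumor left out in turn (points, colored by the arm of the tumor left out). The dotted line is 0.05, and 5 of the 108 points lie below it.

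The ligands on the receiving cells come first. Icam1, ICAM-1, is the main ligand of LFA-1 and is raised on endothelium and many other cells by TNF, IL-1 and interferon gamma. It lies on chromosome 9 (GRCm38, 21015985 to 21028817, plus strand), 556 bp from Icam4. The promoter of Icam1, the ligand with the largest palbociclib effect, is shown because cytokine-driven factors are known to act there. In this RefSeq window (GRCm38.p6, chr9:21015690-21015989, plus strand, 250 bases before to 50 after the start) the capitals mark a match to the GAS element TTCNNNGAA, the letters that STAT factors are known to bind:
Icam1: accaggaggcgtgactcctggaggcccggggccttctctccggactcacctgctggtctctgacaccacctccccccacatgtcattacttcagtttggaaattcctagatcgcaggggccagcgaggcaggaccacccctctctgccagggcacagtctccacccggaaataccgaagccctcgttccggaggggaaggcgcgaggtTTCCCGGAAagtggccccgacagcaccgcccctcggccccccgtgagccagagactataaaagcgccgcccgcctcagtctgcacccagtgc
The match lies at positions -42 to -34 from the start. The element TTCNNNGAA is its own reverse complement, so every match to it reads as one on both strands. Matches to GAS were present in 8.3% of 32851 promoter windows of this length, and a match is a description of letters, not a site shown to be used.

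Icam1 was at 4.68, 2.68 and 2.06 FPKM in vehicle tumors 1 to 3 and at 4.10, 8.39 and 6.44 FPKM in palbociclib tumors. It was at 4.13, 1.40 and 1.91 FPKM in anti-PD-1 tumors and at 9.36, 2.52 and 8.55 FPKM in combination tumors. In each comparison the groups overlapped by 1 tumor on a side, vehicle replicate 1 being above the lowest palbociclib tumor and combination replicate 2 below anti-PD-1 replicate 1. The palbociclib effect of Icam1 was 1.18 ± 0.38 (SE, limma adjusted p = 0.134), being 1.01 ± 0.53 without and 1.36 ± 0.53 with anti-PD-1. The spread between tumors of an arm was 0.75 (SD, log2) for Icam1, against a median of 0.239 over all genes tested. An antisense gene, Gm47079, shares 511 exon bases with Icam1, so fragments of both could not be told apart without strand.

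Icam2, ICAM-2, is a ligand of LFA-1 that resting endothelium carries constitutively. The gene is on chromosome 11 (106377656 to 106388075, minus strand). Its values were 1.07, 0.279 and 1.54 FPKM in vehicle tumors, 1.63, 1.03 and 1.70 FPKM in palbociclib tumors, 1.28, 1.14 and 1.43 FPKM in anti-PD-1 tumors and 1.39, 1.39 and 0.8996 FPKM in combination tumors. All arms overlapped, and the widest gap was within vehicle, where replicate 2 lay far below the other 11 tumors. The palbociclib effect was 0.34 ± 0.31 (SE, limma adjusted p = 0.553), and it was 0.028 without vehicle replicate 2. Icam2 was thus the gene of the 9 whose difference depended most on 1 tumor.

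Vcam1, VCAM-1, is the cytokine-induced ligand of the integrin VLA-4 and is also made by stromal cells and macrophages. The gene is on chromosome 3 (116109949 to 116129688, minus strand). Vehicle tumors were at 4.41, 2.55 and 2.30 FPKM and palbociclib tumors at 3.42, 3.79 and 6.05 FPKM. Anti-PD-1 tumors were at 1.53, 1.54 and 2.41 FPKM and combination tumors at 5.02, 1.64 and 3.90 FPKM. Vehicle and palbociclib overlapped through vehicle replicate 1, and combination replicate 2 lay within the anti-PD-1 range. The palbociclib effect of Vcam1 was 0.66 ± 0.28 (SE, limma adjusted p = 0.217). The antisense gene Gm43109 overlaps Vcam1 by 61 exon bases and was listed at no more than 0.0857 FPKM.

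The endothelial selectins were low. Sele, E-selectin, appears on endothelium activated by TNF or IL-1 and slows leukocytes for rolling. It lies on chromosome 1 (164048234 to 164057677, plus strand). Its RefSeq promoter window (GRCm38.p6, chr1:164047984-164048283, plus strand) is shown as the other window of these genes with a GAS match, again in capitals:
Sele: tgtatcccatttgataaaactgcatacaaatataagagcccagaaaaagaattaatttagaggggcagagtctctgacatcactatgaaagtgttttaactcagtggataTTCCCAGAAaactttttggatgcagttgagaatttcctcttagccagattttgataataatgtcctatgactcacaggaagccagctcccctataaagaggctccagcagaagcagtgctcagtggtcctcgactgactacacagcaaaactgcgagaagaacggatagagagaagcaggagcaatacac
This match lies at positions -140 to -132. RefSeq windows were at hand for 4 of the 9 genes, Icam1, Sele, Selp and Itga4. None of these 4 windows held the NF-kB, ISRE or E2F consensus as searched on both strands, which 4.51%, 3.44% and 2.26% of all windows held, and Selp and Itga4 held no GAS match. Such an absence says only that the strict consensus was not met in these windows, since looser kB-like elements were not searched for.

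Sele was at 0.0887, 0.134 and 0.0508 FPKM in vehicle tumors and at 0.148, 0.139 and 0.124 FPKM in palbociclib tumors. It was at 0.0718, 0.105 and 0.0927 FPKM in anti-PD-1 tumors and at 0.172, 0.160 and 0.297 FPKM in combination tumors. The 3 combination tumors were the highest of the 12, a pattern that was not counted over all genes. As for 10.8% and 11.4% of all genes, Sele in the combination tumors was above every vehicle tumor and every anti-PD-1 tumor. These values rest on 13 fragments in the vehicle arm (95% Poisson interval 6.9 to 22.2), 19 in the palbociclib arm (11.4 to 29.7), 14 in the anti-PD-1 arm (7.7 to 23.5) and 30 in the combination arm (20.2 to 42.8), intervals that cover counting error only. The vehicle and combination intervals overlapped at this depth, which is not a test of their difference, and none was run on the fragment numbers. The palbociclib effect of Sele was 0.51 ± 0.21 (SE, limma adjusted p = 0.208) on a scale where the added 0.1 is about as large as the values themselves and shrinks the difference.

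Selp, P-selectin, is stored in endothelial cells and platelets and is moved to the surface on activation. It lies on chromosome 1 (164115264 to 164150026, plus strand). Vehicle tumors were at 0.317, 0.244 and 0.210 FPKM and palbociclib tumors at 0.373, 0.583 and 0.631 FPKM. Anti-PD-1 tumors were at 0.137, 0.140 and 0.203 FPKM and combination tumors at 0.439, 0.248 and 0.403 FPKM. Selp was the one gene of the 9 whose palbociclib tumors all lay above vehicle and whose combination tumors all lay above anti-PD-1 tumors. Taken singly, these separations were met by 12.9% and 11.4% of all genes, and the share meeting both was not counted. The anti-PD-1 tumors lay below all vehicle tumors for Selp, as for 7.09% of all genes. Its palbociclib effect of 0.81 ± 0.19 (SE) had the smallest p of the 9 in limma (unadjusted 0.00151, adjusted 0.0846), and the differences without and with anti-PD-1 were nearly equal at 0.80 ± 0.27 and 0.82 ± 0.27. The fragments behind these values were 79, 154, 53 and 109 in the vehicle, palbociclib, anti-PD-1 and combination arms. Gm16587 and Gm16548, on the opposite strand, share 186 and 438 exon bases with Selp and were listed at no more than 0.171 and 0.09997 FPKM, levels that are not small beside Selp itself.

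Endothelial markers had differences of the opposite sign. Of 10 endothelial markers (Cdh5, Kdr, Tek, Tie1, Egfl7, Cldn5, Erg, Plvap, Emcn and Robo4), 8 had a negative palbociclib effect, with a median of -0.49, and 0 passed the threshold in limma (5 were lower at an unadjusted p under 0.05, where 3154 of all 15350 genes were at that p in either direction). Cdh5, the junction protein VE-cadherin, had the highest level and an effect of -0.73 (limma adjusted p = 0.110). The summed FPKM of the 10 ran from 25.3 to 45.0 in vehicle, 21.0 to 27.4 in palbociclib, 29.9 to 49.2 in anti-PD-1 and 19.4 to 26.8 in combination tumors, and no marker was at 0 throughout an arm. Expressed relative to the mean log2 level of these markers in the same tumor, 7 of the 9 genes were higher with palbociclib in limma, where 15.0% of all genes were called, 2269 of the 2295 of them higher, and the median of all genes was 0.47. Against that shift the difference was 1.60 ± 0.34 for Icam1 (limma adjusted p = 0.0069), 1.23 ± 0.31 for Selp (0.0194) and 1.08 ± 0.27 for Vcam1 (0.0167), while Icam2 at 0.75 ± 0.28 (0.0617) and Sele at 0.92 ± 0.37 (0.0755) did not pass. The count rested in part on 1 tumor, since without anti-PD-1 replicate 3, the tumor with the most endothelial marker RNA, it was 2 of 9 (Icam1 and Itgal), where the share of all genes called fell from 15.0% to 2.1%. The part of vessel content in the result was not tested. Platelet markers, a further source of Selp, had 2 of 6 genes at a mean FPKM of at least 0.1 (Gp6, the platelet collagen receptor, was at 0 in all 3 palbociclib tumors), with effects of -0.095 for Pf4 and -2.31 for Ppbp (limma adjusted p = 0.833 and 0.150), and summed to 41.7 to 47.3 FPKM in vehicle, 35.2 to 47.1 in palbociclib, 62.3 to 80.7 in anti-PD-1 and 18.3 to 67.3 in combination tumors.

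Selplg, PSGL-1, is the selectin ligand that leukocytes carry, and also limits T cell activity. Selplg maps to chromosome 5 (113818536 to 113832644, minus strand). It was at 4.15, 3.44 and 2.39 FPKM in vehicle tumors, 4.96, 6.74 and 6.29 FPKM in palbociclib tumors, 2.76, 2.86 and 2.85 FPKM in anti-PD-1 tumors and 5.78, 2.54 and 6.29 FPKM in combination tumors. All 3 palbociclib tumors were above all 3 vehicle tumors, as for 12.9% of all genes. Combination replicate 2 alone among the palbociclib-treated tumors lay below every anti-PD-1 tumor. The palbociclib effect was 0.76 ± 0.21 (SE, limma adjusted p = 0.112).

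Itgal and Itgb2 encode the alpha and beta chains of LFA-1, the integrin with which T cells bind ICAM-1. Itgal lies on chromosome 7 (127296260 to 127335138, plus strand) and was at 1.08, 0.681 and 1.33 FPKM in vehicle tumors, 1.60, 2.33 and 2.04 FPKM in palbociclib tumors, 0.964, 1.07 and 1.39 FPKM in anti-PD-1 tumors and 2.61, 0.890 and 2.15 FPKM in combination tumors. All palbociclib tumors were above all vehicle tumors, as for 12.9% of all genes, and combination replicate 2 was again the low tumor of its arm. The palbociclib effect of Itgal was 0.74 ± 0.25 (SE, limma adjusted p = 0.151). Itgb2, on chromosome 10 (77530252 to 77565708, plus strand), is shared by LFA-1 and the myeloid integrins Mac-1 and CD11c/CD18. Its vehicle tumors were at 20.0, 13.3 and 17.6 FPKM and its palbociclib tumors at 29.2, 33.8 and 26.2 FPKM. Its anti-PD-1 tumors were at 43.6, 17.9 and 26.8 FPKM and its combination tumors at 36.8, 23.8 and 29.8 FPKM. All 3 tumors of palbociclib and of the combination were above all 3 vehicle tumors (as for 12.9% and 10.8% of all genes), and the anti-PD-1 arm spanned the widest range. The palbociclib effect of Itgb2 was 0.82 ± 0.28 without anti-PD-1 and 0.11 ± 0.28 with it (SE, limma adjusted p = 0.297 and 0.899), and the difference between them, the interaction, was -0.71 ± 0.40 (limma adjusted p = 0.885).

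Itgb2 did not keep a fixed ratio to other leukocyte genes. Its FPKM was 8.99 to 9.51 times that of Ptprc in the 3 vehicle tumors, 9.82 to 13.0 times in palbociclib tumors and 15.0 to 32.3 times in anti-PD-1 tumors, a set of ratios chosen after their values were seen and given with no test. In combination tumors the ratio was 11.5, 28.3 and 10.3. The anti-PD-1 tumors and combination replicate 2 thus had much Itgb2 for their Ptprc, and these 4 were also the tumors with the lowest Ptprc. Relative to Itgal, Itgb2 was 45.2 times as high in anti-PD-1 replicate 1 and 12.9 to 26.7 times in the other 11 tumors. Relative to Itgam, the alpha chain of Mac-1, it was 1.24 to 3.53 times as high. Itgam has 2 entries in the tables, of which the one with the higher mean was used.

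**Figure D3:**
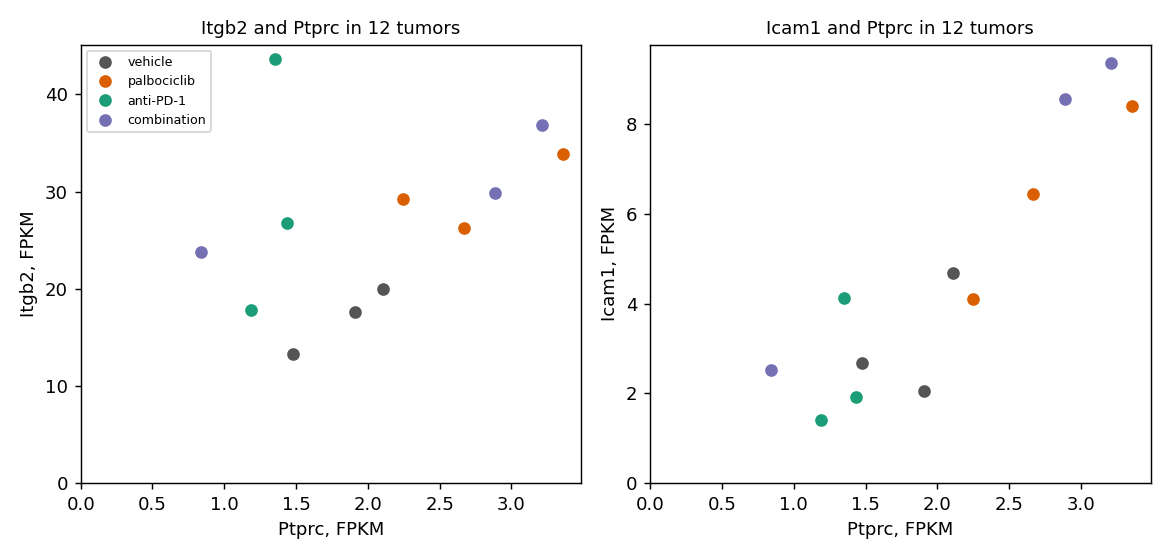
FPKM of Itgb2 (left) and Icam1 (right) on the vertical axes against FPKM of the pan-leukocyte gene Ptprc on the horizontal axes, with 1 point per tumor colored by arm and all axes from 0. The anti-PD-1 tumors and combination replicate 2 lie at the lowest Ptprc, with Itgb2 at 15.0 to 32.3 times Ptprc, while Icam1 was at 1.08 to 3.06 times Ptprc over the 12 tumors.

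Itga4 encodes the alpha chain that pairs with Itgb1 as VLA-4, the VCAM-1 receptor, or with Itgb7 as the receptor of the gut addressin. It lies on chromosome 2 (79255426 to 79333123, plus strand) and shares 1124 exon bases with Cerkl on the opposite strand, listed at 0.0508 to 0.191 FPKM. Itga4 was at 1.16, 0.382 and 0.319 FPKM in vehicle tumors, 1.12, 1.45 and 1.09 FPKM in palbociclib tumors, 0.874, 0.295 and 0.374 FPKM in anti-PD-1 tumors and 1.69, 0.624 and 1.05 FPKM in combination tumors. Replicate 1 was the high tumor in vehicle and in anti-PD-1, and it brought both arms into the range of the palbociclib-treated tumors. The palbociclib effect of Itga4 was 1.03 ± 0.34 (SE, limma adjusted p = 0.142). Its beta partners stood far higher on the FPKM scale, with means of 146.6 for Itgb1 and 54.2 for Itgb7, and Itga4 was never more than 0.0116 times Itgb1.

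Pan-leukocyte markers had positive differences, as the integrins did. All 6 pan-leukocyte markers (Ptprc, Coro1a, Laptm5, Cd53, Lcp1 and Cd37) had a positive palbociclib effect, with a median of 0.49 and 0 past the threshold in limma (3 at an unadjusted p under 0.05), and their summed FPKM was 51.8 to 77.2 in vehicle, 79.7 to 108 in palbociclib, 45.9 to 76.3 in anti-PD-1 and 51.0 to 107 in combination tumors. Effects were also positive for 5 of 5 T cell markers (median 1.36, Cd3g 1.79, limma adjusted p = 0.0885) and 6 of 6 macrophage markers (median 1.17), and negative for 5 of 5 neutrophil markers (median -1.90), again with 0 past the threshold and with 5, 4 and 4 genes of these 3 lists at an unadjusted p under 0.05. At that p, 14.1% of all genes were higher, and 3154 of 15350 genes were at it in either direction. T cell markers summed to 0.928 to 4.51 FPKM in vehicle and 4.85 to 9.93 in palbociclib tumors, to 1.07 to 2.73 in anti-PD-1 and 3.10 to 9.33 in combination tumors. Neutrophil markers summed to 31.4 to 538 FPKM in vehicle, 15.2 to 33.1 in palbociclib, 47.1 to 276 in anti-PD-1 and 14.1 to 88.5 in combination tumors. Relative to the pan-leukocyte markers of the same tumor, 0 of the 9 genes were called in limma, where 1.17% of all genes were, with 1 of the 9 (Icam1) and 5251 of all genes at an unadjusted p under 0.05 and a median of all genes of -0.46. The subtraction moves every gene by the same amount and leaves the order of the effects as it was, so that only the errors and the distance from 0 are new. On this scale Icam1 was at 0.67 ± 0.25 (limma adjusted p = 0.113), Itga4 at 0.52 ± 0.29 (0.184) and the other 7 genes between -0.18 and 0.30. Icam1 passed as higher without combination replicate 2 (0.81, limma adjusted p = 0.0132) and without anti-PD-1 replicate 1 (0.78, 0.0399). In these fits 63.6% and 20.8% of all genes passed in either direction, most of them lower. Only 220 of the 9771 and 183 of the 3189 genes called were higher, so these shares are not a like background for Icam1. The part of leukocyte content in these results was not tested further.

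**Figure D4:**
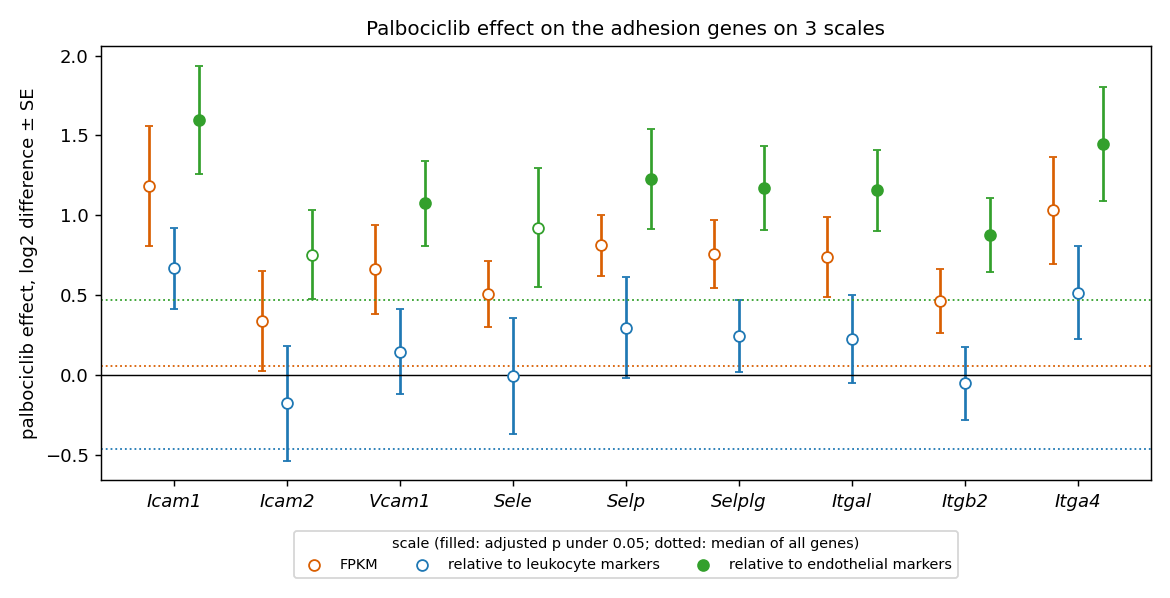
Palbociclib effect of each gene (log2 difference ± SE, vertical axis) on the FPKM scale, relative to pan-leukocyte markers and relative to endothelial markers, with filled points for a limma adjusted p under 0.05. Dotted lines are the medians of all 15350 genes on each scale (0.055, -0.46 and 0.47). The scales differ by a constant for every gene, so the height of a point above its line is the same on all 3, and all 9 genes lie above it.

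The single comparisons share tumors, since vehicle and anti-PD-1 tumors each enter several of them. Against vehicle, 0 of the 9 genes were called in limma for palbociclib (0.143% of all genes called), for anti-PD-1 (0.0%) and for the combination (0.013%), with 2117, 1289 and 2602 of all genes at an unadjusted p under 0.05. The same count was 0 of 9 for the combination against palbociclib (0.00651%) and against anti-PD-1 (0.00651%), with 694 and 1814 genes at an unadjusted p under 0.05, and for the interaction (0.0%, with 879). Palbociclib against vehicle had positive differences for 9 of 9 genes, from 0.33 to 1.05, and the combination against anti-PD-1 for 8 of 9, from -0.080 for Icam2 to 1.36 for Icam1. Anti-PD-1 against vehicle was mixed, with 4 of 9 positive, from -0.70 for Vcam1 to 0.71 for Itgb2 (unadjusted p = 0.0289 in limma, adjusted 0.580). Of the 9 genes, 5 were higher at an unadjusted p under 0.05 for palbociclib against vehicle, 2 for the combination against vehicle and 3 for the combination against anti-PD-1. None of the 9 was lower at that p in these comparisons. Beside them stand 2117, 2602 and 1814 of 15350 genes in either direction, since higher genes were not counted apart in these comparisons. The 2 of 9 for the combination against vehicle is near that share, which is not a like measure for higher genes alone. The combination against palbociclib gave differences from -0.44 for Selp to 0.36 for Sele, 2 of 9 being positive, and the interaction ran from -0.84 ± 0.63 for Icam2 to 0.35 ± 0.75 for Icam1. With standard errors of 0.39 to 0.75 the interaction leaves room for sizeable differences in either direction, and its p-values do not show that palbociclib acted alike with and without anti-PD-1.

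Counted by tumors, all 3 palbociclib tumors were above all 3 vehicle tumors for 4 of the 9 genes (Selp, Selplg, Itgal and Itgb2), against 12.9% of all genes. All 3 combination tumors were above all 3 anti-PD-1 tumors for 2 of 9 (Sele and Selp), against 11.4%, and above all 3 vehicle tumors for 2 of 9 (Sele and Itgb2), against 10.8%. All 3 vehicle tumors were above all 3 anti-PD-1 tumors for 1 of 9 (Selp), against 7.09%, a share close to the background.

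Other genes of the adhesion steps were followed as lists, and none of their genes passed the limma threshold in the palbociclib effect. At an unadjusted p under 0.05 there were 0 higher and 4 lower among other adhesion ligands, 5 and 2 among other adhesion receptors, 5 and 1 among genes of integrin activation, 3 and 0 among enzymes of selectin ligands, 0 and 2 in the NF-kB pathway and 4 and 1 among inducing cytokines and receptors. Of all 15350 genes, 14.1% were higher at that p and 3154 were at it in either direction, so that several of these counts are near the background. Other adhesion ligands gave 3 positive effects of 14 genes tested, with a median of -0.19, and Fn1 (fibronectin) was at -0.46 ± 0.18 (limma adjusted p = 0.197). The median of this list thus lay on the other side of 0 from Icam1, Icam2 and Vcam1. Other leukocyte adhesion receptors gave 13 positive of 17, with a median of 0.18 and a range of -0.99 to 1.74, the most abundant being Itgb1 (-0.14 ± 0.061, limma adjusted p = 0.232), Itgb7 (0.11 ± 0.19, 0.768) and the hyaluronan receptor Cd44 (0.14 ± 0.10, 0.433). Genes that switch integrins to the active form gave 11 positive of 13, with a median of 0.13, among them Rap1b, a small GTPase, at 0.17, Tln1, the integrin-binding talin, at 0.054 and Vcl, vinculin, at -0.33 (limma adjusted p = 0.351, 0.694 and 0.147). Enzymes that build selectin ligands gave 7 positive of 10, with a median of 0.13, St3gal4 being at 0.30, B4galt1 at -0.28 and Tpst1, which sulfates tyrosines of PSGL-1, at 0.24 (limma adjusted p = 0.182, 0.331 and 0.220).

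Upstream of the ligands, the 15 genes of the NF-kB pathway gave 8 positive effects and a median of 0.0031. Nfkbia, the inhibitor that NF-kB itself induces, was at -0.89 ± 0.25 (limma adjusted p = 0.112), with Rela at 0.010 and Nfkb2 at -0.080 (0.941 and 0.662). The cytokines that induce adhesion molecules and their receptors gave 10 positive of 12 with a median of 0.16, and of the most abundant Ltbr was at 0.094, Tnfrsf1a at 0.092 and Ifngr1, a chain of the interferon gamma receptor, at 0.25 (limma adjusted p = 0.472, 0.522 and 0.131). The list ranged from -1.71 to 1.55, and its ends were cytokines, here named after their values were seen, with Il1b at -1.71, Tnf at 0.75, Ltb at 1.12 and Ifng at 1.55 (limma adjusted p = 0.230, 0.240, 0.103 and 0.172).

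**Figure D5:**
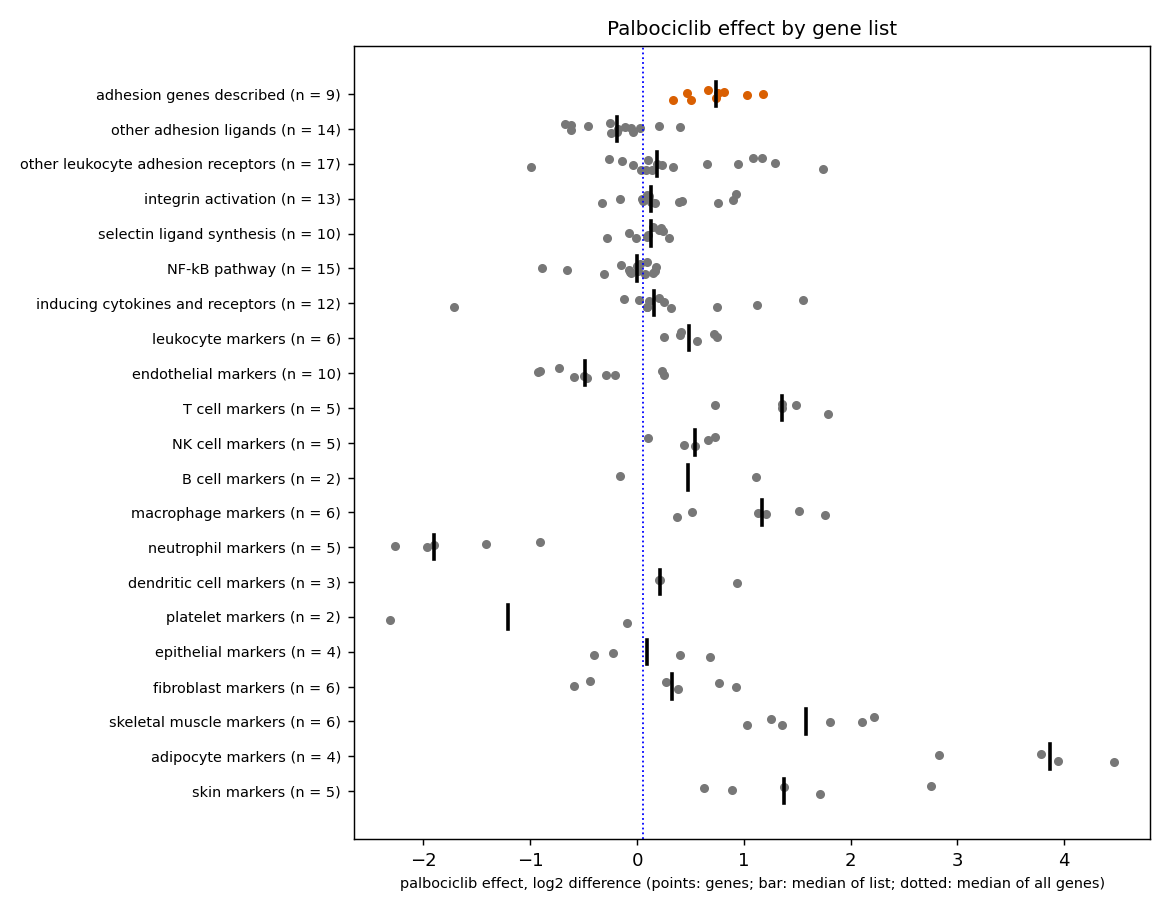
Palbociclib effect (log2 difference, horizontal axis) of every tested gene of each list (points), with the list's median as a black bar and the median of all genes as a dotted line. The 9 adhesion genes (top row, orange) all lie to the right of the dotted line, with a median of 0.74. All tested leukocyte, T cell, NK cell, macrophage, dendritic cell, skeletal muscle, adipocyte and skin markers lie there too. The endothelial markers have a median of -0.49.

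The pairs of ligand and receptor differed in how closely their levels went together over the 12 tumors, described by Pearson's r of log2 values, which all share the libraries and arms. Selp and Selplg had r = 0.91, and Selplg ranked 8 among 11187 genes for likeness to Selp. The other pairs ranked lower, each rank being that of the second gene for likeness to the first. They were Sele and Selplg at 0.632 (rank 263), Icam1 and Itgal at 0.731 (rank 708 of 11186) and Vcam1 and Itga4 at 0.705 (rank 303). Icam1 and Itgb2 were at 0.621 (rank 1320) and Icam2 and Itgal at 0.443 (rank 2004). A high r was not particular to such pairs, with Icam1 and Itga4 at 0.93 (rank 110) and Vcam1 and Selp at 0.892 (rank 5). Other unpaired members were far apart, Icam1 and Icam2 being at 0.053. The genes most like each member came from those with a mean FPKM of at least 1. For Icam1 they were Gmfg (0.98), Cotl1 (0.978) and Cd52 (0.976), and for Itga4 Anxa6 (0.986), Nrp1 (0.976) and Iqgap2 (0.973). Vcam1 and Selp shared the same gene at the top, H2-M3 (0.927 and 0.953), followed by Sec22b and Itpkb for Vcam1 and by CAAA01147332.1 and C920025E04Rik for Selp. Selplg was most like Man2b1 (0.957), Spn, itself a sialomucin of leukocytes, (0.951) and Pdcd1lg2 (0.94), and Itgal was most like Gm28177 (0.928), Cyp4f18 (0.926) and Il12rb1 (0.922). For Itgb2 the leading genes were Gpr89 (0.944), Slc12a2 (0.922) and Fancd2 (0.916), for Icam2 Tsr1 (0.928), Jkamp (0.915) and Gm15501 (0.901), and for Sele Rrm2 (0.89), Ift27 (0.854) and Chac2 (0.852).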

How the data were processed

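Gene expression in 12 tumors, 3 per arm, was read from the tables the authors deposited, 1 per tumor, which hold FPKM made by the authors. HISAT2 and GRCm38 (mm10) are named in the submitters' processing notes, and the counting tool, the annotation and the use of strand are not given in the sources used here. Where a symbol recurred (67 of 34745 entries), its most abundant entry was used. Gene positions were looked up in GENCODE M21 (GRCm38), where 94.4% of symbols were found.

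Fragments per tumor were estimated from the steps of low FPKM values (89.4% of 1374 genes gave the same steps), and fragment numbers per gene were whole for Sele, Selp and Icam2 and approximate for the others. Their intervals are exact Poisson intervals. A linear model of log2(FPKM + 0.1) with 1 mean per arm and no covariates was fitted to the 15350 genes whose mean FPKM reached 0.1. Moderated tests with a trend came from limma 3.58.1 (R 4.3.3), and p-values were adjusted by Benjamini-Hochberg across those genes and compared with 0.05. Fold changes on this scale understate the change of low genes. Relative levels subtract the mean log2 level of a marker list from each gene. The fit was also run on simulated data with independent normal noise for each gene, which does not cover genes that move together through tissue content. The labels do not say whether the tumors came from separate experiments, so p-values measure the spread between these tumors.

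Genes named are the 9 members, the 3 most abundant of each list (with any past the threshold, of which there were none) and the 3 genes most like each member. The members and lists were chosen with earlier results of these data known. Promoters come from RefSeq (GRCm38.p6). Tables were handled in Python 3.11.15 with pandas 2.3.3 and drawn with matplotlib 3.10.9. Other settings tried were a pseudocount of 1 or 0.01, a minimum mean FPKM of 1 or no minimum, TPM, quantile normalization, eBayes without a trend, a replicate block, only the 2 arms compared, and leaving out each tumor.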

Additional observations from a re-analysis of the deposited data

How the results depend on the processing

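With 3 tumors per arm and differences that rest on single tumors, adjusted p-values moved widely, and Sele in particular rests on few fragments. The palbociclib effect stayed positive for all 9 genes with each tumor left out and under the 8 other settings run for it, except that Sele, Selp and Itga4 were not tested with the filter at a mean FPKM of 1. Fits of only the 2 arms compared give no palbociclib effect. With 1 tumor left out, 0 to 3 of the 9 genes passed for the palbociclib effect, 0 to 1 relative to leukocyte markers (49 to 9771 of all genes, 180 as reported) and 2 to 8 relative to endothelial markers (323 to 6376 of all genes, 2295 as reported), and 0 in the other 6 comparisons. Over all genes the calls in the palbociclib effect, 48 as reported, came to 0 to 772 with 1 tumor left out, 11 with no filter beyond an FPKM above 0, 0 with eBayes without a trend, 129 with the replicate block and 44 (28 higher, 16 lower, against 38 and 10) after quantile normalization. Palbociclib against vehicle gave 22 calls, 6 without a trend, 1 after quantile normalization and 34 as TPM.

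The replicate number as a block left 0 of the 9 genes called in the 7 comparisons and relative to leukocyte markers, and gave 9 of 9 relative to endothelial markers, where 56.4% of all genes were called. The deviations of 18 same-numbered pairs correlated at -0.213 to 0.453, with 7 over 0.1, so the numbers did not pair the tumors across the 4 arms. All 3 pairs of vehicle with anti-PD-1 tumors were over 0.1 (0.128 to 0.453), and for that comparison the block gave 0 of 9 and 0 of all genes, as did the fit without it (1274 and 1289 genes at an unadjusted p under 0.05 in limma).

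Some differences near 0 changed sign under other settings, and the cause was not tested. They were Sele for anti-PD-1 against vehicle (-0.00095 with a pseudocount of 1), Icam1 for the combination against palbociclib (0.0084, quantile normalization), Itgb2 for the same comparison (-0.048 as TPM, -0.0092 with quantile normalization), Selp in the interaction (-0.049, pseudocount 1), Itga4 in the interaction (0.051, quantile normalization), Sele relative to leukocyte markers (0.34 with a pseudocount of 0.01, 0.24 as TPM) and Selp on that scale (-0.19, pseudocount 1). With 1 tumor left out, signs also changed for the following. Anti-PD-1 against vehicle ranged from -0.0058 to 1.05 for Icam2, -0.15 to 0.17 for Sele, -0.080 to 0.36 for Itgal and -0.55 to 0.33 for Itga4. The combination against vehicle ranged from -0.086 to 0.97 for Icam2 and -0.21 to 0.56 for Vcam1. The combination against palbociclib ranged from -0.37 to 0.56 for Icam1, -0.73 to 0.045 for Vcam1, -0.62 to 0.019 for Selplg, -0.47 to 0.26 for Itgal, -0.15 to 0.16 for Itgb2 and -0.52 to 0.13 for Itga4. The combination against anti-PD-1 ranged from -0.18 to 0.11 for Icam2 and -0.20 to 0.44 for Itgb2. The interaction ranged from -0.032 to 0.75 for Vcam1, -0.18 to 0.21 for Selp, -0.42 to 0.21 for Selplg, -0.63 to 0.094 for Itgal and -0.53 to 0.35 for Itga4. Relative to leukocyte markers the palbociclib effect ranged from -0.47 to 0.099 for Icam2, -0.0055 to 0.29 for Vcam1, -0.14 to 0.092 for Sele and -0.15 to 0.058 for Itgb2.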
